A study of Mus musculus with 4 samples.

Results

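Genes of the T cell receptor complex and other T cell markers were followed in Ly49H+ NK cells during murine cytomegalovirus (MCMV) infection. The set held 10 genes of the 35798 named in the count table and was chosen by symbol for what the genes encode. It comprised the CD3 chains Cd3e, Cd3d and Cd3g, the receptor beta constant genes Trbc1 and Trbc2, the coreceptor genes Cd4 and Cd8a, the kinase gene Lck, and the surface marker genes Thy1 and Cd5. The study asked how the absence of TNFR2, a receptor for tumor necrosis factor, alters NK cells in infected mice.

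Wild-type NK cells carried the CD45.1 allele and TNFR2 KO NK cells, from mice deficient in Tnfrsf1b, carried CD45.2. Cells of both genotypes were transferred together into NSG mice, which were infected 1 day later, and Ly49H+ cells of each CD45 type were sorted from spleen on D3.5, after depletion of other cells with a mouse NK cell isolation kit. Donors and hosts were adult mice of 1 age range in the study's methods. Each genotype had 2 libraries made from spleens of 3 hosts pooled together, and libraries with the same replicate number shared a pool. NSG mice lack T, B and NK cells of their own but keep myeloid cells. Genotype, CD45 allele and sort gate cannot be told apart in this design, and the study's methods give no further gate against T cells for these libraries. The study's figure legend describes 1 experiment in duplicate and names the pooled spleen sample of 3 infected mice in the singular. The labels do not say whether the pools held different mice. The p-values below therefore measure only the spread between these libraries, which may be technical.

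On T cells, the receptor for antigen is a pair of variable chains, alpha with beta or gamma with delta, held at the membrane by the CD3 chains. The coreceptors CD4 and CD8 bind MHC molecules and bring the kinase LCK to the complex, where it phosphorylates CD3 and zeta chains. NK cells develop without a rearranged T cell receptor, yet they use LCK and the zeta chain behind their own receptors, carry Thy-1 and can transcribe CD3 genes and unrearranged receptor loci, so few of these genes separate T cells from NK cells by themselves.

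Libraries held between 32713256 and 39543650 estimated counts. Expression is given as CPM, counts relative to the TMM-scaled library size, a scaling that centers most genes on no change. Log2-fold changes compare TNFR2 KO with wild-type and come, with their Benjamini-Hochberg adjusted p values, from edgeR's quasi-likelihood test over 13822 genes. Tnfrsf1b itself was at 264.7 and 268.6 CPM in wild-type and at 55.1 and 58.6 CPM in TNFR2 KO cells (log2-fold change -2.23, SE 0.0352, adjusted p = 1.35e-13). Defining NK markers were high in every library. Ncr1, which encodes NKp46, was at 258.3 and 255.5 CPM in wild-type and at 511.3 and 510.5 CPM in TNFR2 KO, and Klra8, which encodes Ly49H, at 313.3 and 315.9 CPM and at 762.1 and 725.8 CPM. Of 14 B cell markers, 10 were under 1 CPM in every library. The other 4 were tested, and at an adjusted p under 0.05, 2 were higher and 2 lower, against 24.2% and 26.2% of all genes. The most abundant were the 2 higher ones: Ighm, at 36.8 and 37.95 CPM in wild-type and 48.1 and 45.6 CPM in TNFR2 KO, and Cd22, at 12.45 and 11.58 CPM against 23.1 and 22.1 CPM.

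All 10 genes were detected in every library and all passed the filter on low counts. At an adjusted p under 0.05 with TMM scaling, Trbc1, Thy1, Lck and Cd3g were higher in TNFR2 KO. Cd4, Cd8a, Cd5, Cd3e and Cd3d were lower, and Trbc2 did not pass. Scaling on NK markers put all 10 lower, along with the median of all genes (below). The 9 genes that passed were read against a background of 50.4% of all genes tested, with 24.2% higher and 26.2% lower, beside which stand the 4 higher and 5 lower genes of 10. The libraries of the 2 genotypes did not overlap for 9 of the genes, against 74.0% of all genes. None passed a log2-fold change over 1 in either direction together with the adjusted p, thresholds that 13.3% of all genes passed. The plot of CPM by library shows how close the replicates lay.

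**Figure D1:**
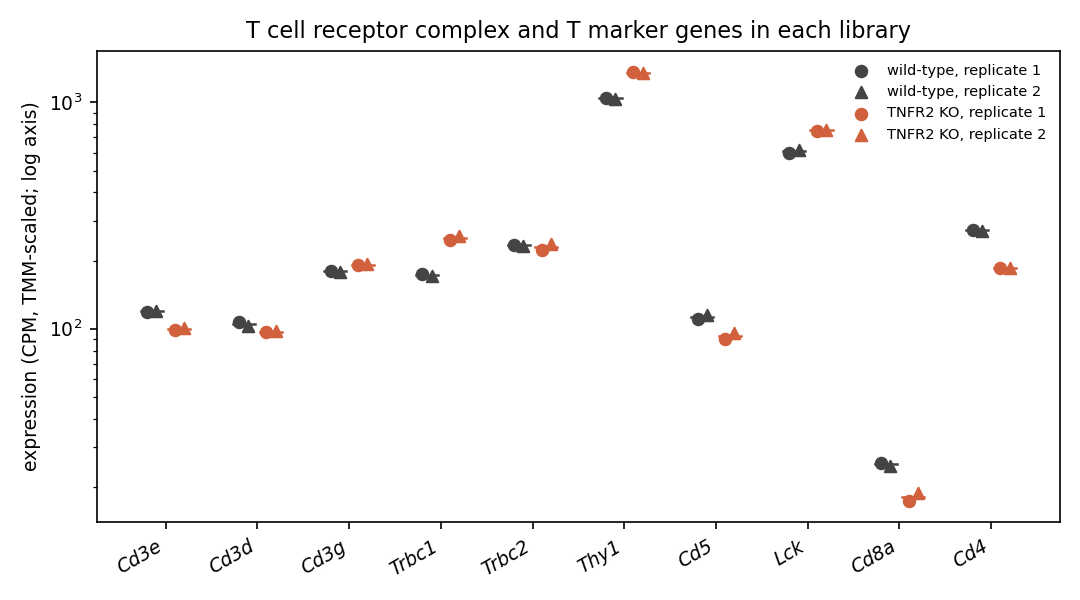
Expression of the 10 genes in each library, in TMM-scaled CPM on a log axis, with circles for replicate 1, triangles for replicate 2 and a short line at the mean of each genotype. Trbc2 is the only gene whose 2 genotypes overlap.

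The direction of 4 genes depended on how libraries were scaled. Under TMM all 20 NK markers were higher in TNFR2 KO at an adjusted p under 0.05, against 24.2% of all genes. Log2-fold changes of the markers ran from 0.44 to 1.49, with 0.89 as their median. Scaled on themselves, 10 markers were higher and 6 lower. Together they made up 17822 and 17739.5 CPM of the wild-type libraries and 32648 and 32313.5 CPM of those from TNFR2 KO. Scaling the libraries on those 20 genes in place of TMM moved the median of all genes from -0.0028 to -0.80. Under it the log2-fold changes of Cd3g, Trbc1, Thy1 and Lck turned to -0.70, -0.25, -0.42 and -0.48, and Trbc2 stood at -0.82, each past an adjusted p of 0.05. Relative to the shifted median of all genes these 5 were at 0.10, 0.55, 0.38, 0.32 and -0.02, and Cd4 and Cd8a at -0.55 and -0.47, as another scaling shifts every gene by about the same amount. In bulk libraries, fewer cells of a type and less RNA per cell cannot be told apart.

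**Figure D2:**
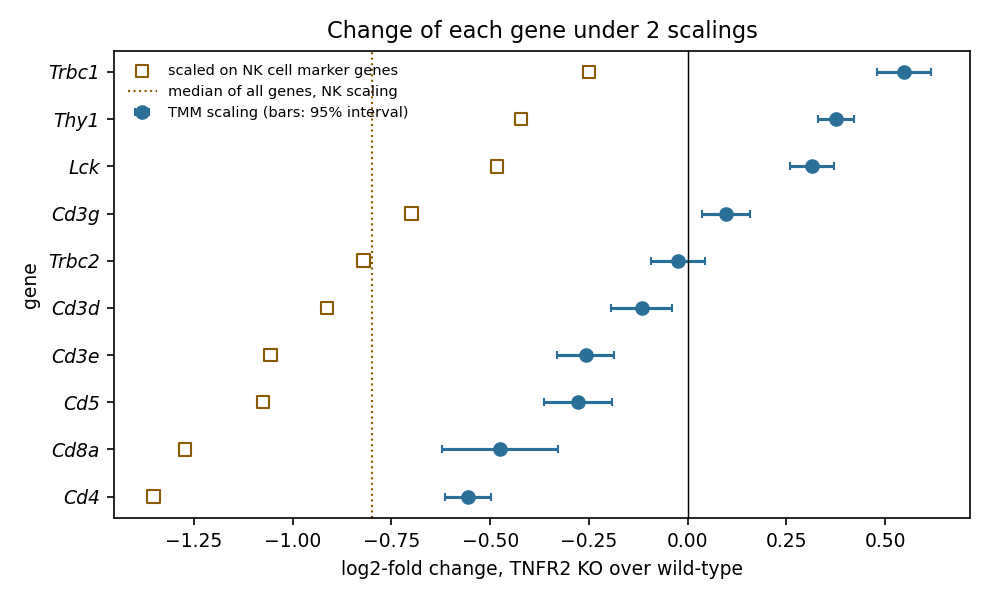
Log2-fold change of each gene, TNFR2 KO over wild-type, with TMM scaling (filled circles, bars for the 95% interval) and with scaling on 20 NK cell markers (open squares; dotted line, median of all genes under that scaling). Trbc1 is highest and Cd4 lowest under both, and all 10 squares lie below 0, whereas Trbc1, Thy1, Lck and Cd3g lie above 0 with TMM.

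The CD3 chains epsilon, delta and gamma pair as heterodimers that carry the signalling motifs of the receptor complex. Their genes lie side by side on chromosome 9 of GRCm38: Cd3g from 44969572 to 44980431 on the minus strand, Cd3d from 44981786 to 44987339 on the plus strand and Cd3e from 44998740 to 45009627 on the minus strand. The start sites of Cd3g and Cd3d are 1355 bases apart and point away from each other. The 250 bases before each start, from RefSeq on GRCm38.p6, are shown because the 3 neighbours did not move together. Capitals mark motif matches on either strand, and shares are of 32851 promoters of the same length. The ETS motif was searched as GGAAGT, which 19.7% of promoters hold. The RUNX motif was searched as TGTGGT, held by 14.0%. For GATA factors the letters were AGATAA, found in 9.99%. For the E-box they were CACCTG, found in 17.2%. No marked match overlaps another. A match is a description of letters and not a binding site.
Cd3e, chr9:45009612-45009861, minus strand: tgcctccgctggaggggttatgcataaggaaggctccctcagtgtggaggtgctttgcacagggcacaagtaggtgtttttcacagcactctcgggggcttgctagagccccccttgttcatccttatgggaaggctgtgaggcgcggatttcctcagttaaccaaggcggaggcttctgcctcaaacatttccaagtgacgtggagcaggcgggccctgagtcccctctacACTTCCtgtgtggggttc
Cd3d, chr9:44981536-44981785, plus strand: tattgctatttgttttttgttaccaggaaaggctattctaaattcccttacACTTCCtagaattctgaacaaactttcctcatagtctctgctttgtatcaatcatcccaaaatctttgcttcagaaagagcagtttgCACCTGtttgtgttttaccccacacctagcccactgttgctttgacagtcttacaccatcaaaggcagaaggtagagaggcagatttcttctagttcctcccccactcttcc
Cd3g, chr9:44980432-44980681, minus strand: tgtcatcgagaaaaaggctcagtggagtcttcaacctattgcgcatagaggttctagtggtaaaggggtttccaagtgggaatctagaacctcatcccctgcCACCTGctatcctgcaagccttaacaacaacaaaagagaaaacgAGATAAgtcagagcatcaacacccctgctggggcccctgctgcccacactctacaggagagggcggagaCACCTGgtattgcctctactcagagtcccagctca
The Cd3e window held 1 ETS match, the Cd3d window 1 ETS and 1 E-box match, and the Cd3g window 1 GATA and 2 E-box matches.

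Cd3e was at 118.9 and 120.3 CPM in wild-type and at 99.1 and 100.9 CPM in TNFR2 KO. Both TNFR2 KO values lay below both wild-type values, with a log2-fold change of -0.26 (SE 0.0329, adjusted p = 3.43e-05 in edgeR's test), a level 1.196-fold lower. Cd3d was at 107.4 and 103.0 CPM against 97.02 and 97.2 CPM, and the groups again did not overlap. Its log2-fold change of -0.12 (SE 0.0355, adjusted p = 0.0167) rested on single libraries: without wild-type replicate 1 it was -0.08 (adjusted p = 0.203) and without TNFR2 KO replicate 1 it was -0.10 (adjusted p = 0.0549).

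Cd3g was at 180.7 and 178.1 CPM in wild-type and at 191.8 and 192.3 CPM in TNFR2 KO. With TMM scaling the TNFR2 KO libraries were the higher ones without overlap, with a log2-fold change of 0.10 (SE 0.0277, adjusted p = 0.0112), and scaling on NK markers turned this to -0.70. The call was lost without wild-type replicate 2 (adjusted p = 0.0513), with library size alone as the scaling (0.04, adjusted p = 0.298) and among genes of at least 10 CPM (0.06, adjusted p = 0.0731). Of the 3 chains, Cd3e alone passed in every alternative tried.

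Trbc1 and Trbc2 encode the constant part of the receptor beta chain, and a rearranged beta gene uses 1 of them. Both lie on the plus strand of chromosome 6, Trbc1 from 41538218 to 41539881 and Trbc2 from 41546730 to 41548352, with 6849 bases between them. Each follows its own cluster of joining segments, Trbj1 before Trbc1 and Trbj2 before Trbc2. Their 518 coding bases differ at 23 positions and are 95.6% identical, so reads can be shared: of the 31-base stretches of Trbc1, 44.8% occur in another gene, and of those of Trbc2, 48.5%. In exon 1, 1 of 375 bases differs. The stretch around it and exon 3, where 15 of 107 bases differ, show where reads can be told apart, with the differing bases in capitals (GRCm38, plus strand).
Trbc1 exon 1, chr6:41538427-41538527: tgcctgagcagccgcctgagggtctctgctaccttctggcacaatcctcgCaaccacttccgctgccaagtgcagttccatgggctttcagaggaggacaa
Trbc2 exon 1, chr6:41546939-41547039: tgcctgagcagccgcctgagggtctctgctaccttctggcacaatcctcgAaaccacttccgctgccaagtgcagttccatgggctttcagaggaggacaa
Trbc1 exon 3, chr6:41539229-41539335: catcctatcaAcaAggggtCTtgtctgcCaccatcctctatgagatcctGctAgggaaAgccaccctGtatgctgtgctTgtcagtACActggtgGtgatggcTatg
Trbc2 exon 3, chr6:41547772-41547878: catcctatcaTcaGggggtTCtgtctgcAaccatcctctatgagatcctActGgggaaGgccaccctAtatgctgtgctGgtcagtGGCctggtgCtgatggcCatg

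Trbc1 was at 173.7 and 170.6 CPM in wild-type and at 245.5 and 257.9 CPM in TNFR2 KO cells, with no overlap. It had the highest log2-fold change of the 10 genes with TMM scaling, 0.55 (SE 0.0312, adjusted p = 2.08e-08), and -0.25 with scaling on NK markers. Trbc2 was at 234.9 and 232.3 CPM in wild-type and at 223.3 and 236.6 CPM in TNFR2 KO. The groups overlapped, and the log2-fold change was -0.02 with a 95% interval from -0.09 to 0.05 (adjusted p = 0.569). With both genes summed to 1 feature, the log2-fold change was 0.25 (adjusted p = 1.67e-05).

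The share of Trbc1 within the counts of both genes does not depend on scaling between libraries. It was 42.5% (95% Wilson interval 41.7% to 43.3%) and 42.3% (41.6% to 43.1%) in the wild-type libraries, and 52.4% (51.6% to 53.1%) and 52.2% (51.4% to 52.9%) in the TNFR2 KO libraries. Both TNFR2 KO shares were higher than both wild-type shares. These intervals cover counting error only, and how reads from the shared stretches were divided between the genes was not tested. No p is given for them, since exact permutation of 2 against 2 libraries reaches no two-sided p below 0.333.

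The joining segments were then compared by cluster, a split chosen after their values were seen. With TMM scaling all 7 Trbj1 segments were higher in TNFR2 KO at an adjusted p under 0.05, against 24.2% of all genes. Their median log2-fold change was 1.04 (0.52 to 1.19). Under scaling on NK markers that median was 0.25 and 1 of 7 passed, with the median of all genes at -0.80. Summed, the Trbj1 segments were at 25.8 and 21.9 CPM in wild-type and at 46.6 and 48.5 CPM in TNFR2 KO. None of the 7 Trbj2 segments passed with TMM scaling, against 50.4% of all genes in either direction. Their median was -0.11 (-0.74 to 0.54), and their sums were 9.81 and 9.30 CPM for wild-type and 9.80 and 8.62 CPM for TNFR2 KO. The Trbj2 cluster held 276 to 379 counts per library against 807 to 1802 for Trbj1, so a change was harder to call in it. Under scaling on NK markers, with the median of all genes at -0.80, 4 of the 7 Trbj2 segments were lower. The share of Trbj1 in all Trbj counts was 72.4% and 70.2% in wild-type and 82.6% and 84.9% in TNFR2 KO. The first segment of each cluster is shown as the one of highest CPM among its 7 (GRCm38, plus strand).
Trbj1-1, chr6:41533864-41533911: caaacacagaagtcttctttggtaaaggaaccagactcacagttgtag
Trbj2-1, chr6:41542754-41542803: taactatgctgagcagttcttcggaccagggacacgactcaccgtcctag
Trbj1-1 was at 9.07 and 7.84 CPM in wild-type and at 16.6 and 18.2 CPM in TNFR2 KO (log2-fold change 1.04, SE 0.104, adjusted p = 4.21e-06; 0.24 with scaling on NK markers, adjusted p = 0.0523). Trbj2-1 was at 3.40 and 3.15 CPM and at 4.19 and 3.40 CPM, with a log2-fold change of 0.22 (adjusted p = 0.344) that was -0.58 with scaling on NK markers (adjusted p = 0.00858).

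**Figure D3:**
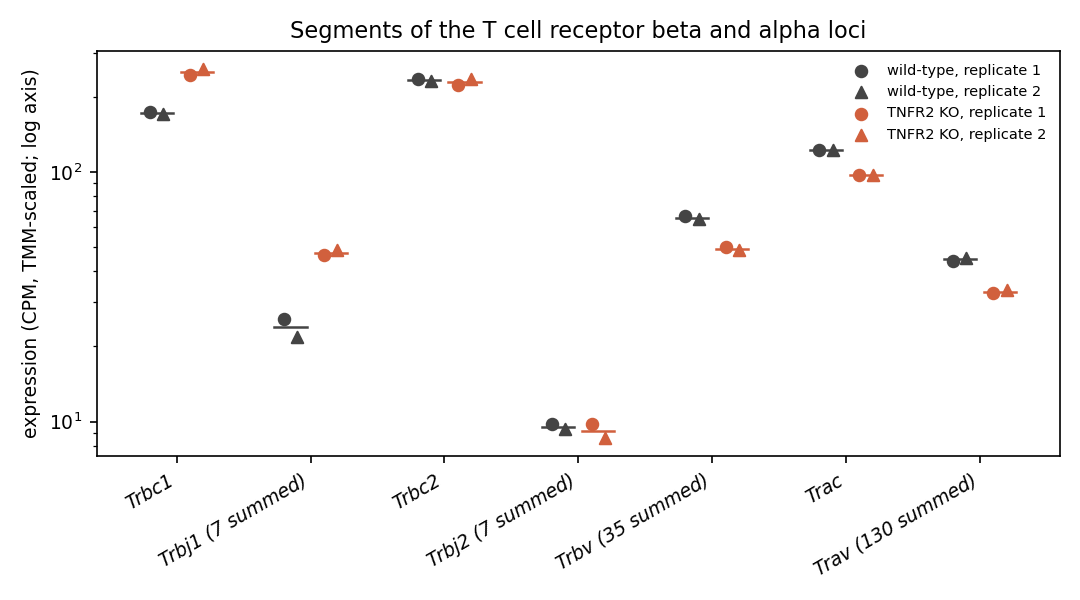
Expression of receptor segments in each library, in TMM-scaled CPM on a log axis, with circles for replicate 1, triangles for replicate 2 and lines for means. Trbc1 and the summed Trbj1 segments sit higher in TNFR2 KO with this scaling (Trbc1 turned lower with scaling on NK markers), Trbc2 overlaps between genotypes, the summed Trbj2 segments reach 9.81 CPM for wild-type and 9.80 CPM for TNFR2 KO, and Trbv, Trac and Trav sit lower.

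Variable segments of the beta locus, which are joined to D and J segments when the receptor gene rearranges, were lower in sum. Summed Trbv counts were at 66.7 and 64.6 CPM in wild-type and at 49.9 and 48.6 CPM in TNFR2 KO. Of 20 segments tested 1 was higher and 8 were lower, against 24.2% and 26.2% of all genes. Per 100 counts of Trbc, a measure without scaling, there were 16.3 and 16.0 Trbv counts in the wild-type libraries and 10.7 and 9.83 in the TNFR2 KO libraries. Trbv26 alone held 30.1% to 30.9% of the Trbv counts of each library. It was at 20.1 and 19.9 CPM in wild-type and at 15.02 and 14.89 CPM in TNFR2 KO, with a log2-fold change of -0.42 (SE 0.0725, adjusted p = 0.000399). The next in CPM, Trbv23, was at 7.41 and 6.16 CPM against 6.26 and 6.21 CPM and did not pass (-0.12, adjusted p = 0.500).

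Trac, the constant gene of the alpha chain on chromosome 14 (54220521 to 54224206, plus strand), was at 122.7 and 122.2 CPM in wild-type and at 97.05 and 97.48 CPM in TNFR2 KO. It was lower without overlap (log2-fold change -0.33, SE 0.0324, adjusted p = 3.19e-06). Trav segments summed to 44.1 and 45.2 CPM against 32.7 and 33.7 CPM, and per 100 Trac counts there were 35.9 and 37.0 Trav counts in wild-type and 33.6 and 34.6 in TNFR2 KO. Of 57 Trav segments tested, 14 were lower and 5 higher, against 26.2% and 24.2% of all genes. Of those that passed, 17 could be matched to a sequence. Among the 17, 14 shared over 50% of their 31-base stretches with other genes, which makes their single values uncertain.

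Gamma and delta chains form the receptor of a smaller class of T cells. Trdc, the delta constant gene, was at 13.9 and 12.1 CPM in wild-type and at 18.3 and 17.3 CPM in TNFR2 KO (log2-fold change 0.45, SE 0.0911, adjusted p = 0.00129), and turned to -0.34 with scaling on NK markers. Trdv4 was at 3.98 and 3.36 CPM against 13.4 and 13.5 CPM, with a log2-fold change of 1.87 (SE 0.125, adjusted p = 9.56e-08) that was 1.07 with scaling on NK markers. Per 100 Trdc counts there were 55.6 and 61.6 Trdv counts in wild-type and 117.4 and 125.6 in TNFR2 KO. Among gamma constants, Trgc4 was at 26.2 and 27.2 CPM in wild-type and at 26.1 and 27.8 CPM in TNFR2 KO and did not pass (0.01, adjusted p = 0.889). Trgc2 was lower (-0.47, adjusted p = 0.00489), Trgc1 at -0.48 did not pass (adjusted p = 0.109), and Trgc3 was under 1 CPM in every library and was not tested.

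Cd4 and Cd8a encode the coreceptors of helper and cytotoxic T cells, and CD4 is also found on myeloid and dendritic cells. Cd4 lies on chromosome 6 from 124864692 to 124888221 on the minus strand. It was at 274.1 and 270.4 CPM in wild-type and at 185.6 and 184.9 CPM in TNFR2 KO. The groups were far apart next to their replicates, with a log2-fold change of -0.56 (SE 0.0268, adjusted p = 4.17e-09), the lowest of the 10 genes. Cd8a, on chromosome 6 from 71373427 to 71379173 on the plus strand, was at 25.4 and 24.8 CPM in wild-type and at 17.3 and 18.9 CPM in TNFR2 KO, and both TNFR2 KO values were the lower ones. The log2-fold change was -0.48 (SE 0.0673, adjusted p = 8.41e-05). Cd8b1, the other chain of the CD8 heterodimer, was at 19.1 and 17.0 CPM against 18.0 and 17.5 CPM and did not pass (-0.02, adjusted p = 0.849).

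Lck, the Src-family kinase that starts receptor signalling, lies on chromosome 4 (129548344 to 129573641, minus strand), the chromosome that also holds Tnfrsf1b. It was at 595.2 and 619.1 CPM in wild-type and at 750.9 and 758.8 CPM in TNFR2 KO. With TMM scaling it was higher without overlap, with a log2-fold change of 0.31 (SE 0.0255, adjusted p = 6.03e-07), and with scaling on NK markers it was lower, at -0.48.

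Thy1 encodes Thy-1, a surface glycoprotein of T cells that mouse NK cells also carry, and lies on chromosome 9 from 44043384 to 44048579 on the plus strand. It was at 1044 and 1040.2 CPM in wild-type and at 1360.4 and 1344 CPM in TNFR2 KO. The log2-fold change was 0.38 with TMM scaling (SE 0.0210, adjusted p = 1.75e-08) and -0.42 with scaling on NK markers. Cd5, on chromosome 19 (10717116 to 10739002, minus strand), encodes a scavenger-family receptor that dampens receptor signalling and is also on some B cells. It was at 110.4 and 114.9 CPM in wild-type and at 90.3 and 95.7 CPM in TNFR2 KO, a lower level without overlap (log2-fold change -0.28, SE 0.0392, adjusted p = 8.26e-05).

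Levels were compared between genes as CPM per kilobase of the longest coding transcript in GENCODE mouse release M21. In wild-type, Thy1 was highest at 600.7, followed by Trbc2 at 337.6, Lck at 277.9, Trbc1 at 233.6, Cd3g at 175.4, Cd4 at 87.6, Cd3e at 81.8, Cd3d at 65.1, Cd5 at 37.7 and Cd8a at 8.03. With the median length of each gene's coding transcripts in place of the longest, Thy1 was at 1521 in wild-type and 1974 in TNFR2 KO, and the order of the means was unchanged in each genotype. With the longest, the replicates of neighbouring genes in the wild-type order did not overlap. In TNFR2 KO, Thy1 by its longest transcript was again highest at 779.4, but the ranges of Lck (343.7 to 347.3), Trbc1 (333.1 to 350.0) and Trbc2 (322.7 to 341.9) ran into each other. Cd4 stood below Cd3e and Cd3d there, at 59.6 against 68.4 and 60.1, and Cd8a was again the lowest at 5.78.

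The rest of the signalling pathway was read from a list of 41 genes, all of them tested. Of these, 24 were higher, 10 lower and 7 did not pass, against 24.2% higher and 26.2% lower over all genes. The median log2-fold change was 0.15 (-0.67 to 0.84) beside -0.0028 over all genes. None had a change over 1, whereas 13.3% of all genes passed both thresholds. Under scaling on NK markers, where the median of all genes was itself -0.80, 0 were higher and 40 lower. Those of highest CPM were Ptprc, which encodes the phosphatase CD45 (0.50, adjusted p = 8.32e-10), Fyn, a Src-family kinase like LCK (0.31), Csk, the kinase that restrains both (0.14), and the transcription factor gene Nfatc3 (0.29), all higher with TMM scaling and lower with scaling on NK markers (-0.30, -0.49, -0.65 and -0.51). Ptprc is also the gene whose CD45 allele differs between the genotypes, and the part of this in its value was not tested. Several more genes of the list were named after their values had been seen. Cd247, which encodes the zeta chain shared by T cell and NK receptors, was at 193.7 and 197.2 CPM in wild-type and at 276.3 and 266.9 CPM in TNFR2 KO (0.48, adjusted p = 3.66e-08; -0.32 with scaling on NK markers). The Tec-family kinase gene Txk was the highest of the list at 0.84 (0.04 with scaling on NK markers, not past the threshold), and Themis, which acts in developing T cells, the lowest at -0.67 (84.3 and 81.3 CPM against 52.3 and 51.4 CPM). Zap70, the kinase recruited to CD3 and zeta chains, was at 0.35 (-0.45 with that scaling), and Ptpn6, which encodes the phosphatase SHP-1, at -0.56.

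Of 22 other T cell surface and costimulatory genes, 10 were higher, 8 lower and 4 did not pass, with a median of 0.09. Over all genes, 24.2% were higher and 26.2% lower. Scaling on NK markers gave 1 higher and 21 lower for this list, with the median of all genes at -0.80. Among those of highest CPM, Spn (CD43) was at 0.35, Cd7 at 0.73 and Cd244a, the NK receptor 2B4, at 0.93. With scaling on NK markers only Cd244a of these 3 stayed above 0 (0.14), and it was the 1 gene counted as higher. Cd244a is itself among the NK markers used for that scaling, so its value there is not independent of the scaling. Past a change of 1 were Il7r, the receptor chain for interleukin-7, which fell from 7.04 and 6.84 CPM to 2.30 and 2.81 CPM (-1.45, adjusted p = 1.01e-05), and Ccr7, a lymph node homing receptor, which fell from 1.77 and 1.71 CPM to 0.75 and 0.87 CPM (-1.10, adjusted p = 0.00784). Of 19 transcription factors of the T lineage that were tested, 9 were higher, 3 lower and 7 did not pass, beside the same shares over all genes. Their median was 0.14, whereas scaling on NK markers gave 0 higher and 17 lower, again with the median of all genes at -0.80. Ikzf1 was at 0.20, Ets1 at 0.29 and Ikzf3 at 0.52 (-0.60, -0.51 and -0.28 with scaling on NK markers), Satb1 did not pass (-0.01, adjusted p = 0.735), and Ikzf2, which encodes Helios, was the 1 gene past a change of 1 (14.9 CPM in both wild-type libraries against 6.70 and 5.87 CPM, -1.24, adjusted p = 1.06e-06).

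A list of 16 genes best known from T cells, Trac and Cd5 among them, was read as a marker list of T cells. Most of its genes, such as Cd5, Cd28, Cd8b1, Themis and Zbtb7b, were already counted in the lists above, so its counts are not separate from theirs. All 16 were detected, 0 were higher, 8 were lower and 8 did not pass, against 24.2% higher and 26.2% lower over all genes. The median log2-fold change was -0.18 (-0.67 to 0.12). The list summed to 1055.5 and 1065 CPM for wild-type and 925.2 and 920.4 CPM for TNFR2 KO. With scaling on NK markers all 16 were lower, and the median of all genes was -0.80. Zbtb7b was at 138.6 and 151.4 CPM in wild-type and at 154.7 and 155.0 CPM in TNFR2 KO (0.10, adjusted p = 0.0623), and Cd28, the costimulatory receptor, at 139.1 and 132.6 CPM and at 142.8 and 139.9 CPM (0.06, adjusted p = 0.183). Activated NK cells can express several genes of this list, and the part of any T cells in the results was not tested.

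Markers of myeloid cells and granulocytes were lower in TNFR2 KO by more than any of the 10 genes at their medians. Of 24 macrophage or monocyte markers tested, 22 were lower and 2 higher, against 26.2% and 24.2% of all genes. Their median log2-fold change was -2.90, and the list summed to 3019 and 3002 CPM for wild-type and 1341 and 1319 CPM for TNFR2 KO. Of these sums Ccr2, 1 of the 2 higher, made up 403.5 and 384.0 CPM in wild-type and 686.6 and 669.7 CPM in TNFR2 KO. Of 17 dendritic cell or class II genes, 10 were lower and 2 higher, and the sums were 2619 and 2658 CPM against 1633.5 and 1665 CPM. Itgax, 1 of the 2 higher, held 419.0 and 408.9 CPM of the wild-type sums and 882.4 and 908.3 CPM of those from TNFR2 KO. All 15 neutrophil or granulocyte precursor genes were lower, from 1035 and 1051 CPM to 106.3 and 102.2 CPM, as were 10 of 12 mast cell or basophil genes with 1 higher, from 1324 and 1318 CPM to 116.2 and 117.4 CPM. The macrophage markers Csf1r (254.2 and 255.5 CPM against 27.4 and 26.7 CPM) and Adgre1 (97.1 and 93.9 CPM against 9.69 and 8.83 CPM) were not near 0 in wild-type. Cd4 is expressed by some of these cells, and whether they have any part in its lower level, or in the other results, was not tested. Of 14 stromal or endothelial markers, 10 were under 1 CPM in every library. Among the 8 tested, 5 were lower and 1 higher, against 26.2% and 24.2% of all genes, with a median of -1.51. The most abundant, Pecam1, was the higher one (105.4 and 110.3 CPM against 134.3 and 133.6 CPM). Eng, the next, was lower (13.8 and 13.9 CPM against 2.59 and 3.40 CPM).

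**Figure D4:**
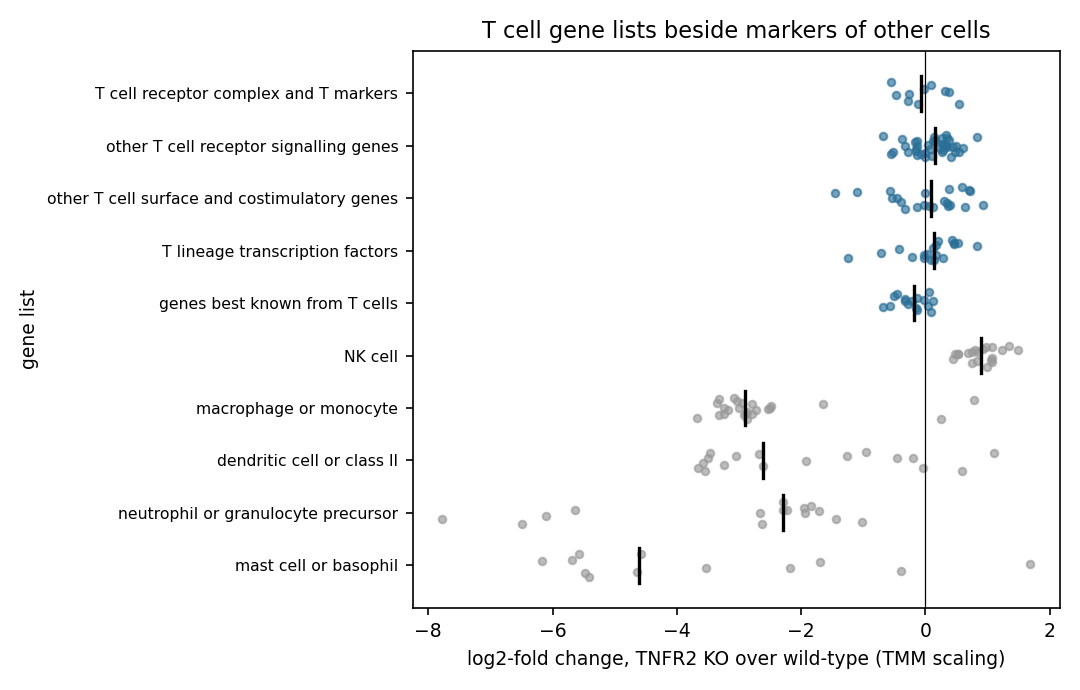
Log2-fold change of each tested gene (points) and the median (black bars) by gene list, TNFR2 KO over wild-type with TMM scaling, T cell lists in blue and other lists in grey. The list of genes best known from T cells shares most of its genes with the other T cell lists. The T cell lists lie around 0, with medians from -0.18 to 0.15 (scaling on NK markers moves the median of all genes by -0.80), NK markers at 0.89, and macrophage, dendritic, granulocyte and mast cell lists at medians from -4.61 to -2.28.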

How the data were processed

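The authors sequenced poly-A enriched, stranded, paired-end libraries, trimmed reads with Trimmomatic 1.4, assigned them to mouse (mm10) transcripts with kallisto 0.46.1 and summed transcripts to genes with Tximport. The deposited values are estimated counts (expected counts) by gene symbol, unscaled. Which transcript annotation was used is not stated in the sources read. A row without a gene name held 0.0559% to 0.0728% of counts and was left out.

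Counts were rounded to whole numbers, filtered with filterByExpr, scaled with TMM and tested with edgeR 4.0.16 in R 4.3.3 (quasi-likelihood test, genotype as the only term, Benjamini-Hochberg adjustment over all genes tested). The threshold was an adjusted p of 0.05, with an absolute log2-fold change over 1 as a second rule. The spread between replicates was small (biological coefficient of variation 3.33%), and replicates differed by more than sampling noise (mean chi-square per gene 3.27 in wild-type and 3.47 in TNFR2 KO), so none was counted as a duplicate. The steps were tested on simulated data.

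Replicate numbers pair the samples, because per the labels a number marks 1 pool of spleens. Across genes, deviations from the group mean correlated at 0.0243 between paired libraries. Alternatives were other scalings, DESeq2 1.42.0, other filters, the replicate block, each library left out, and Trbc1 and Trbc2 summed.

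Positions, transcript lengths and shared 31-base stretches come from GENCODE mouse release M21 on GRCm38, and promoters from RefSeq on GRCm38.p6, which held 6 of the 10 genes. The genes and lists were chosen with earlier results of these data known. Named genes are the 10, Tnfrsf1b, the most abundant 4 of each T cell list and up to 3 of its largest changes past both thresholds, constant segments, the top 3 variable segments and the top 2 of each marker list where a result turns on them; some items this rule names are not reported here. Cd247, Txk, Themis, Zap70, Ptpn6, Cd8b1, Ncr1, Klra8, Csf1r, Adgre1, Trbj1-1 and Trbj2-1 were added after values were seen. Intervals of shares are 95% Wilson intervals (SciPy 1.17.1, Python 3.11.15).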

Additional observations from a re-analysis of the deposited data

How the results depend on the processing

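Most values kept their direction and their side of the threshold. Scaling on NK markers moved most: 3947 genes passed both thresholds (28 higher, 3919 lower, 99.3% lower beside 88.3% with TMM), as did 4 of the 10 genes, and 0 of these were higher and 10 lower at an adjusted p under 0.05. Cd3g, Trbc1, Thy1 and Lck turned to -0.70, -0.25, -0.42 and -0.48, and Trbc2 passed at -0.82. The median of all genes stood at -0.80 with this scaling. Under it 6 signalling genes, 7 surface genes and 4 transcription factors passed both thresholds (0, 1 and 0 higher, 40, 21 and 17 lower at the adjusted p alone), and all 16 genes best known from T cells were lower. For that scaling, the 20 NK markers themselves were 10 higher and 6 lower, and 1 Trbj1 segment was higher. With library size alone Cd3g was at 0.037 (adjusted p = 0.298) and Trbc2 at -0.085 (adjusted p = 0.0440). With DESeq2's test Cd3d was at -0.11 (adjusted p = 0.0750). Among genes of at least 10 CPM, 480 passed both thresholds, 0 surface genes did, and Cd3g was at 0.062. Summing Trbc1 and Trbc2 gave 0.25. Upper-quartile scaling, no filter and the replicate block each put 1 of the 16 genes best known from T cells higher. With each library left out in turn, that number ran from 0 to 1, the surface genes past both thresholds from 1 to 2, Cd3d from -0.137 to -0.078, Cd3g from 0.096 to 0.117 and Trbc2 from -0.060 to 0.029 (0.029 without TNFR2 KO replicate 1). The replicate block, which follows the pairing of the pools, gave 1830 genes past both thresholds. It changed no call on the 10 genes, and at the adjusted p alone gave 11 lower signalling genes in place of 10 and 10 higher transcription factors in place of 9. The cause was not tested in any of these. Segments under 10 counts in a library, and Trbc reads shared between its copies, limit precision.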
